A study of Mus musculus with 7 samples.

Results

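Aminoacyl-tRNA synthetases are the enzymes that join each amino acid to its transfer RNA, so that ribosomes receive charged tRNA. Mammalian cells keep one set in the cytosol and another, encoded by separate nuclear genes whose names end in 2, for translation inside mitochondria. Genes for many cytosolic synthetases are known targets of ATF4, the transcription factor of the integrated stress response, which also drives amino acid synthesis and uptake. The set described here was chosen by gene name, from a fixed list of synthetases found as rows of the deposited table, and held 36 genes of 13376 rows. Of these, 20 were cytosolic, counting Gars and Kars, whose products serve both compartments, and 16 were mitochondrial. Each of the 36 had a row of its own, and all 36 were among the 11500 rows tested, those whose mean reached 1 FPKM.

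RNA was measured in C2C12, an established mouse myoblast line, kept proliferating in both groups. One group received a scrambled siRNA (si-scr, genotype given as control) and the other an siRNA against the long noncoding RNA lnc-31 (si-lnc-31, genotype given as lnc31 knockdown), with 2 libraries in each. Doses and times of siRNA treatment are not given in the sources used here. No label says whether libraries of one group were separate cultures, so p-values reflect only how far these libraries differ, which can be technical variation. A separate pull-down with biotinylated antisense probes against lnc-31 or, as background, lacZ had 1 library per probe set.

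Levels are given in FPKM, fragments per kilobase of transcript scaled to the mapped fragments of the library, and the read depth behind them is unknown. The row that names Mir31, the microRNA at the lnc-31 locus, stood at 13.4 and 15.6 FPKM with scrambled siRNA and at 12.1 and 14.1 with lnc-31 siRNA, a log2 fold change of -0.14 (limma adjusted p = 0.38). That row thus shows no knockdown, and "with lnc-31 siRNA" below means the libraries that carry this label. Myoblast genes were present, with Myod1 at 48.3 and desmin (Des) at 173.7 FPKM on average with scrambled siRNA. Pax7 and Msc, of the same list of 8, had no row. Genes of the fibroblast list were present too, with Col1a1 at 488.6 FPKM, whereas the list of endothelial markers had 0 of 4 members among the rows. The first principal component (41.4% of the variance) set lnc-31 siRNA 1 apart from the other 3 libraries, and values without that library are given where they matter. The second (35.9%) had scrambled siRNA 2 (28.0) and lnc-31 siRNA 2 (-31.5) at opposite ends. Neither component placed the libraries mainly by siRNA label. In such bulk samples fewer cells of a type and less RNA per cell cannot be told apart.

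Promoter sequence is shown first, because many cytosolic synthetase genes are known targets of ATF4 and its motif can be read from their start sites. The motif searched was TGATGNAA, or TTNCATCA on the other strand, the core of the C/EBP-ATF response element, in windows from 250 bases before to 50 bases after a start site, both taken from RefSeq (GRCm38.p6). Windows were at hand for 27 of the 36 genes. A match stood in 5 of the 13 cytosolic genes with a window (38.5%) and in 0 of the 14 mitochondrial ones. The difference was not tested, and the other 8 cytosolic genes had none. Some windows of both compartments lie around sites inside the gene span, as given below. Over all tested genes with a window the share was 2.51% (205 of 8175). Over all genes with a window it was 4.51% (1219 of 27025), and over all single windows of the same length 3.97%. One match per gene is printed 5′ to 3′ on the gene's strand with 10 bases on each side, and the capitals mark the motif:
Aars, chr8:111033841-111033868, + strand: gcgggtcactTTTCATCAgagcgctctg
Gars, chr6:55037961-55037988, + strand: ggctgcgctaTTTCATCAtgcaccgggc
Iars, chr13:49682127-49682154, + strand: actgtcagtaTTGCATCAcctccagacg
Tars, chr15:11399656-11399683, - strand: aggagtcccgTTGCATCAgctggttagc
Yars, chr4:129189896-129189923, + strand: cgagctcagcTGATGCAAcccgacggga

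In Gars and Tars the first base lay 30 and 15 bases before the start, and in Yars, Iars and Aars at bases 4, 8 and 10 after it, counted from the start site of the window. For Aars and Yars that site lies 6064 and 169 bases inside the gene span given by RefSeq. For Gars, Iars and Tars it is the start of the gene on its strand. Only matches near the start site were kept for printing, so these distances do not show where in the windows matches tend to lie. The core was TTGCATCA, or its complement TGATGCAA, in Iars, Tars and Yars, and TTTCATCA in Gars and Aars. All 5 genes belong to the 13 cytosolic synthetases commonly listed as ATF4 targets (Aars, Cars, Eprs, Gars, Iars, Lars, Mars, Nars, Sars, Tars, Vars, Wars and Yars, a list from general knowledge of the pathway), of which 8 had a window. The 7 other cytosolic genes had 5 windows and 0 matches. A match is a description of the letters and no evidence of binding, and Sars, Eprs and Mars had windows without one. In the list of ATF4 regulators and stress targets, 6 of 21 genes with a window matched (28.6%), and in the list of amino acid synthesis and transport 5 of 18 (27.8%).

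The compartments differed in level before any comparison of the groups. Mean levels over the 4 libraries ran from 31.9 to 141.2 FPKM among the 20 cytosolic genes (median 62.1) and from 3.28 to 23.2 FPKM among the 16 mitochondrial ones (median 6.57). Every cytosolic gene was therefore above every mitochondrial gene on this length-scaled unit. Nars (asparagine), Sars (serine), Gars (glycine), Tars (threonine) and Kars (lysine) had the highest levels, and Wars (tryptophan) the lowest of the cytosolic enzymes. Iars2 (isoleucine) and Yars2 (tyrosine) led the mitochondrial enzymes, at 23.2 and 22.1 FPKM, and Mars2 (methionine) was the lowest at 3.28.

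**Figure D1:**
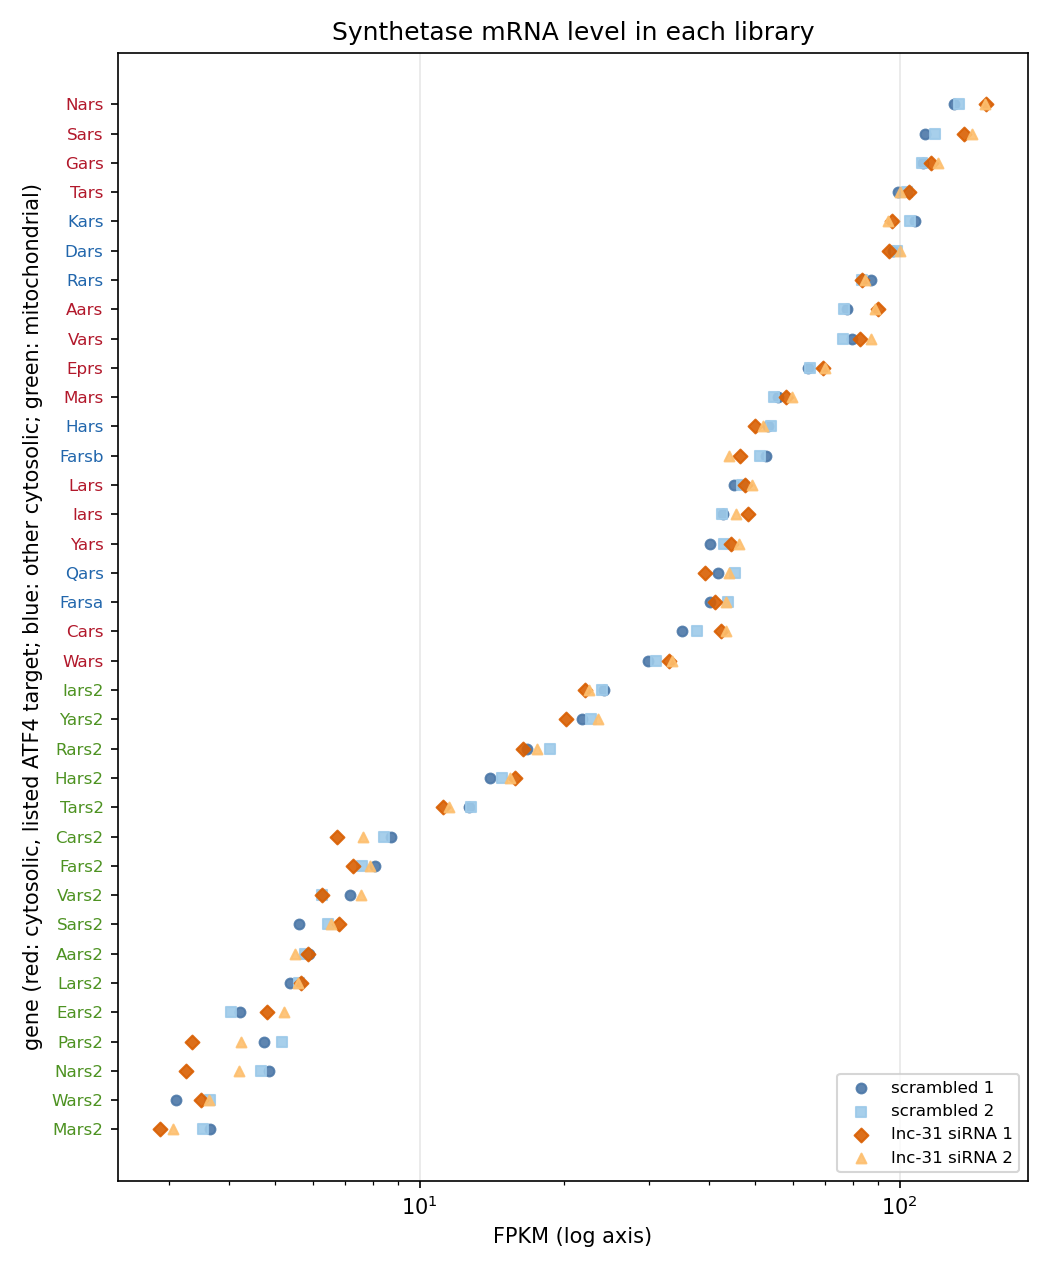
Level of each synthetase mRNA in FPKM (log axis) in the 4 libraries, 1 row per gene, ordered by the mean. Every cytosolic gene (red or blue names) lies above every mitochondrial gene (green names), whose means run from 3.28 to 23.2 FPKM.

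With lnc-31 siRNA, 4 cytosolic synthetases rose (Sars, Cars, Aars and Nars) and none fell, while 0 of 16 mitochondrial ones passed the test in either direction. The rises were small, between 15.0% and 20.1% in mean FPKM. Fold changes are on the log2(FPKM + 1) scale, and a gene is called at a limma p-value under 0.05 after Benjamini-Hochberg adjustment over all 11500 tested rows. The share of all tested genes called was 12.4% (5.64% higher and 6.78% lower). In the same table, the 4 calls among 36 members are 11.1%, close to the background, so the number of calls in the whole set is not a result about synthetases. Among the cytosolic members 4 of 20 were called higher. The groups did not overlap in 24 of the 36 members (66.7%), and in 60.2% of all tested genes. Without adjustment, 8 cytosolic members were higher and 2 lower at p under 0.05, and 1 mitochondrial member was higher and 5 lower. Over all tested genes 30.9% had an unadjusted p under 0.05, and the 6 of 16 mitochondrial members (37.5%) are near that share.

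Sars, which charges serine tRNA, stood at 113.0 and 118.5 FPKM in the scrambled siRNA libraries and at 136.3 and 141.7 with lnc-31 siRNA. Both libraries labelled lnc-31 siRNA were above both scrambled ones, and the log2 fold change was 0.26 (SE 0.046, limma adjusted p = 0.024). The gene lies at chromosome 3, 108424864 to 108445259 (RefSeq, GRCm38.p6, whose coordinates are those of mm10).

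Cars, the cysteine enzyme (chromosome 7, 143557230 to 143600090), went from 35.2 and 37.9 to 42.3 and 43.5 FPKM. The groups did not overlap, with a log2 fold change of 0.23 (SE 0.051, limma adjusted p = 0.045). Aars, the alanine enzyme whose promoter window holds the match shown above (chromosome 8, 111027778 to 111055569), went from 77.6 and 76.6 to 90.3 and 88.9 FPKM. Its log2 fold change was 0.21 (SE 0.038, adjusted p = 0.026), and its libraries were close within each group. Nars, the asparagine enzyme and the most abundant of the set (chromosome 18, 64499655 to 64516515), went from 129.8 and 132.7 to 151.4 and 150.7 FPKM, a log2 fold change of 0.20 (SE 0.039, adjusted p = 0.031). Of these 4 genes, Sars had a promoter window without a match, and Cars and Nars had no window. Gars, Iars, Tars and Yars, whose windows hold a match, were not called. All 4 calls were lost when any 1 library was left out, with adjusted p between 0.059 (Sars without lnc-31 siRNA 1) and 0.17 (Cars without scrambled siRNA 1), and with a constant prior variance (0.053 to 0.079). Their log2 fold changes stayed between 0.18 and 0.30 when 1 library was left out.

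The cytosolic genes were also split by the ATF4 list, a split added after the data were seen. That list was assembled with earlier results of these data known, so the counts below are a description. All 13 listed targets had a log2 fold change above 0 (0.01 to 0.26, median 0.12), and 12 of the 13 were higher in both lnc-31 siRNA libraries than in both scrambled ones. Among all tested genes 48.2% had a value above 0, the median was -0.0067, and the groups did not overlap in 28.5% on the higher side and 31.7% on the lower side. Of the 7 cytosolic synthetases outside the list, 1 had a value above 0 (-0.19 to 0.01, median -0.07). In the lower direction, 3 of these 7, Farsb, Kars and Hars, stood below both scrambled libraries in both lnc-31 siRNA libraries, and none stood above. Only the 4 genes above passed the test, and the difference between the lists was not itself tested. Summed over the 13 listed genes, the level was 925 and 940 FPKM with scrambled siRNA and 1025 and 1036 with lnc-31 siRNA, and over the 7 others 479 and 482 against 452 and 463. The sums of the listed genes were thus higher, and those of the others lower, in both libraries labelled lnc-31 siRNA.

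Among the 9 listed genes that were not called, Iars (isoleucine) went from 42.9 and 42.6 to 48.3 and 45.7 FPKM, a log2 fold change of 0.13 (limma adjusted p = 0.12). Wars (tryptophan) was at 29.9 and 31.001 against 33.1 and 33.5 FPKM, and was called under quantile normalization (adjusted p = 0.0499 against 0.12). Yars (tyrosine) was at 40.3 and 42.9 against 44.5 and 46.3 FPKM. Neither group overlapped the other in these 3 genes. Eprs, a fused enzyme for glutamate and proline, was at 64.3 and 64.9 against 69.4 and 70.0 FPKM, a log2 fold change of 0.11 (adjusted p = 0.12). Vars (valine), Mars (methionine), Gars and Lars (leucine) had log2 fold changes of 0.12, 0.09, 0.08 and 0.07. Tars stood apart from the other 12: its libraries overlapped, at 99.1 and 103.5 against 104.8 and 99.98 FPKM, although its promoter window holds the motif. The 95% interval of its log2 fold change ran from -0.10 to 0.13, short of the changes called in Nars and Aars.

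Farsb and Kars had the lowest log2 fold changes of the cytosolic genes. Farsb, the beta subunit of phenylalanyl-tRNA synthetase, was at 52.8 and 51.1 FPKM in scrambled libraries and at 46.5 and 44.1 with lnc-31 siRNA. Its log2 fold change of -0.19 missed the threshold (limma adjusted p = 0.052) and passed it with a pseudocount of 0.1 (0.0498) or a minimum mean of 5 FPKM (0.043). Farsa, the alpha subunit of the same enzyme, was at 40.3 and 43.9 against 41.3 and 43.5 FPKM, with overlapping groups. The Farsb to Farsa ratio was 1.31 and 1.16 with scrambled siRNA and 1.13 and 1.01 with lnc-31 siRNA. Kars, which charges lysine tRNA in both compartments, was at 107.4 and 104.9 against 96.5 and 94.4 FPKM, a log2 fold change of -0.15 (adjusted p = 0.064). Hars (histidine) was at 53.1 and 53.9 against 49.9 and 51.8 FPKM, again without overlap (-0.07, adjusted p = 0.31). Dars (aspartate), Rars (arginine) and Qars (glutamine) had overlapping groups and log2 fold changes of -0.0039, -0.02 and -0.07, and that of Dars turned to 0.02 and 0.0042 under quantile normalization and median of ratios scaling.

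**Figure D2:**
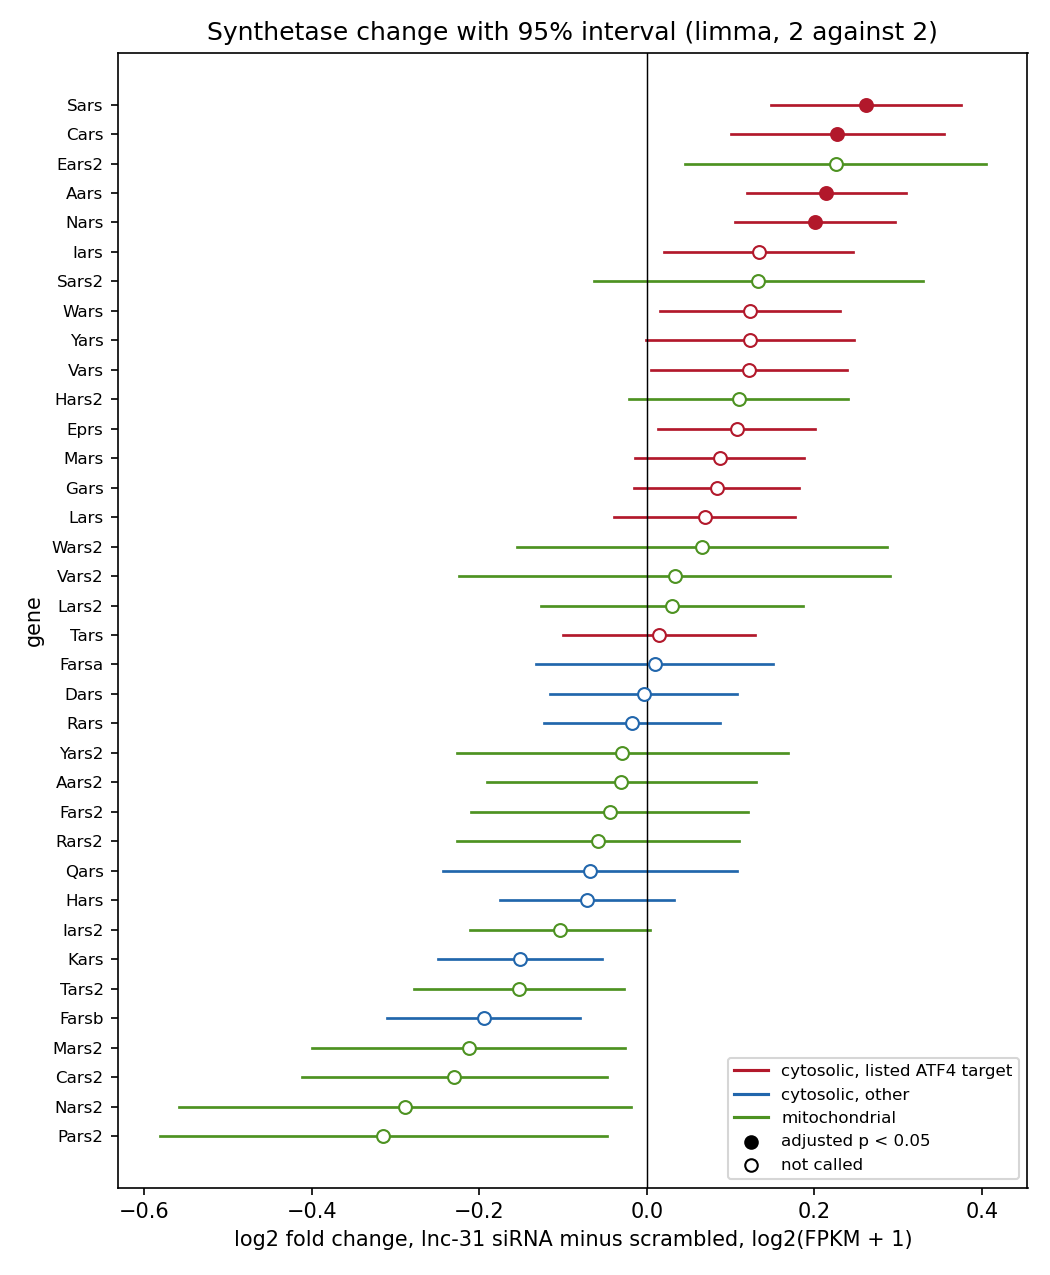
Log2 fold change of each synthetase on the log2(FPKM + 1) scale, lnc-31 siRNA minus scrambled, with its 95% interval (limma, 2 libraries a group). The 13 listed ATF4 targets (red) all lie above 0, from 0.01 to 0.26, and the 4 filled points are the called genes.

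The cytosolic enzymes were also grouped by structure. A set of 8 (Dars, Eprs, Iars, Kars, Lars, Mars, Qars and Rars) sits in the multi-tRNA synthetase complex. Of these 8, 4 had a log2 fold change above 0 and 4 below (median 0.03, none called), and of the 12 outside it 10 were above 0 (median 0.12, 4 called). Of all tested genes 12.4% were called, 5.64% higher. The 12 outside include 9 genes of the ATF4 list, which hold all 4 calls, so this split overlaps with that by list. Inside the complex the 4 listed members (Eprs, Iars, Lars and Mars) lay between 0.07 and 0.13, and the 4 unlisted ones between -0.15 and -0.0039. Among the unlisted ones Dars, Rars and Qars changed sign with 1 library left out, Dars also under quantile normalization and median of ratios scaling, and Kars in none of these. By catalytic fold, the 10 cytosolic genes counted as class I had a median of 0.11 with 1 called (Cars). The 10 counted as class II had a median of 0.01 with 3 called (Sars, Aars and Nars). Eprs, the fused enzyme for glutamate and proline, was counted in class I only, so the split is approximate for it. No difference by complex or by class was tested.

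The mitochondrial enzymes showed a wider range and no calls. Their median log2 fold change was -0.04, with 6 values above 0 and 10 below, from -0.32 to 0.23, and 3 were higher and 6 lower without overlap of the groups, a share of 56.2% against 60.2% of all tested genes (31.7% on the lower side). Pars2 (proline) was at 4.74 and 5.15 FPKM in scrambled libraries and at 3.36 and 4.24 with lnc-31 siRNA, a log2 fold change of -0.32 (SE 0.11, limma adjusted p = 0.12). Nars2 (asparagine) was at 4.85 and 4.66 against 3.27 and 4.20 FPKM (-0.29, adjusted p = 0.14). In both genes lnc-31 siRNA 1, the library that stood apart on the first principal component, was the lower of its group. Without that library the values were -0.18 and -0.15. Cars2 (cysteine) was at 8.73 and 8.42 against 6.73 and 7.62 FPKM (-0.23, adjusted p = 0.10), and its value without lnc-31 siRNA 1 was -0.15. Mars2 was at 3.66 and 3.53 against 2.87 and 3.06 FPKM (-0.21, adjusted p = 0.13). Tars2 was at 12.7 and 12.8 against 11.2 and 11.5 FPKM, and Iars2 at 24.2 and 24.0 against 22.2 and 22.5. All 6 of these genes were lower in both lnc-31 siRNA libraries than in both scrambled ones, but none passed the test.

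Ears2, the mitochondrial glutamate enzyme, went the other way, at 4.22 and 4.05 against 4.80 and 5.21 FPKM (log2 fold change 0.23, limma adjusted p = 0.10). Sars2 and Hars2 were also higher in both lnc-31 siRNA libraries, at 5.597 and 6.43 against 6.81 and 6.55 FPKM and at 14.0 and 14.8 against 15.8 and 15.4. Hars2 and Hars lie side by side on chromosome 18, with Hars at 36766528 to 36783205 and Hars2 at 36783202 to 36792562. Their RefSeq spans overlap by a few bases, and their values had opposite signs (0.11 and -0.07). Neither passed the test. Groups overlapped in the other 7 mitochondrial genes, Wars2, Vars2, Lars2, Yars2, Aars2, Fars2 and Rars2, whose log2 fold changes lay between -0.06 and 0.07. Intervals were wide for some of these low genes. That of Vars2 (7.14 and 6.25 against 6.25 and 7.53 FPKM) ran from -0.22 to 0.29, so a rise of the size called in Sars is not excluded there.

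Ratios of the cytosolic to the mitochondrial enzyme of one amino acid cancel any scaling of a whole library. Of 17 such pairs, 9 had a higher ratio in both lnc-31 siRNA libraries, 3 a lower one and 5 overlapped. The cytosolic log2 fold change exceeded the mitochondrial one in 14. Groups did not overlap in 60.2% of all tested genes taken singly, and no such share was computed for ratios of other genes. Eprs and Fars2 each stand in more than 1 pair, so the pairs are not independent. Lars to Lars2 counted as higher at 8.417 and 8.382 against 8.419 and 8.799. Nars to Nars2 had a ratio of 26.8 and 28.5 with scrambled siRNA and of 46.3 and 35.9 with lnc-31 siRNA. Cars to Cars2 went from 4.03 and 4.50 to 6.29 and 5.71, and Aars to Aars2 from 13.2 and 13.3 to 15.4 and 16.1. Mars to Mars2 went from 15.2 and 15.5 to 20.2 and 19.5, with most of the difference on the mitochondrial side (-0.21 against 0.09). The 3 lower ratios were Hars to Hars2 (3.79 and 3.64 against 3.16 and 3.36), Farsb to Fars2 and Eprs to Ears2. Sars to Sars2 overlapped, at 20.2 and 18.4 against 20.02 and 21.6, and both genes had log2 fold changes above 0 (0.26 and 0.13). The Sars2 value was 0.05 without scrambled siRNA 1 and 0.22 without scrambled siRNA 2. With 2 libraries a group these ratios are a description, without a test.

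**Figure D3:**
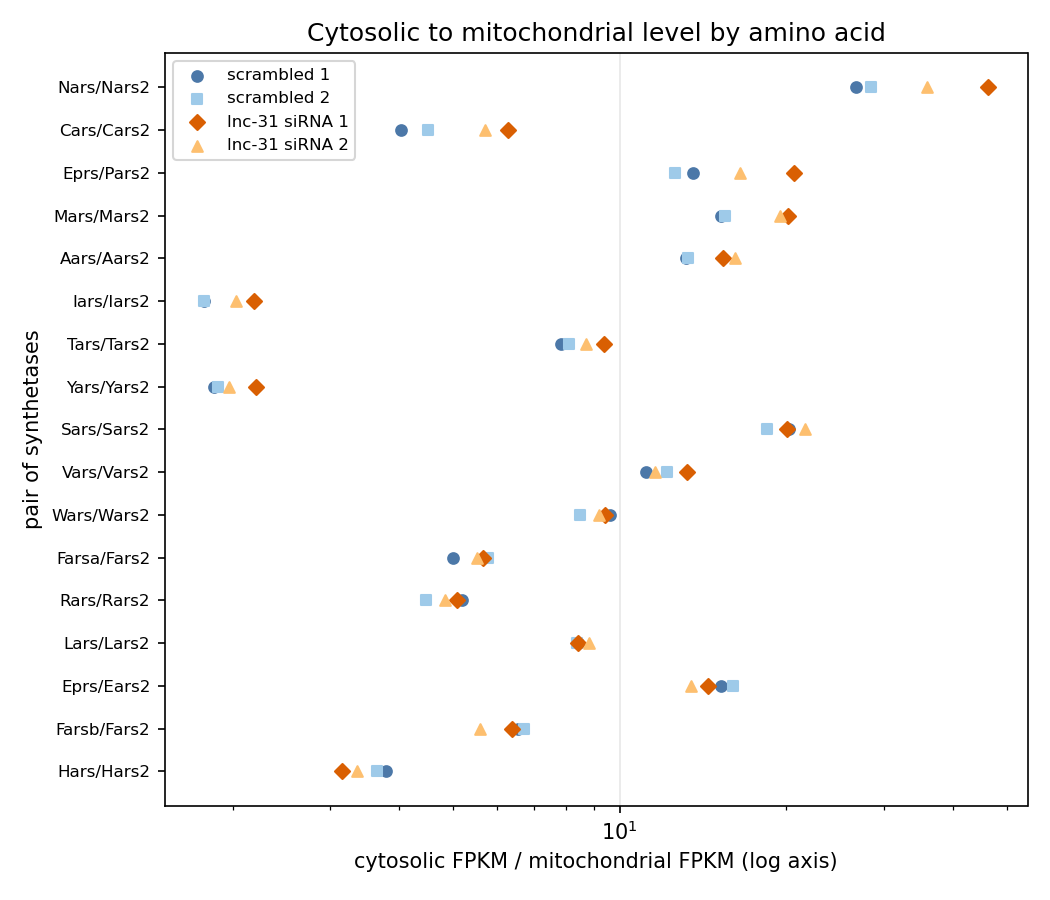
Ratio of cytosolic to mitochondrial FPKM (log axis) for 17 pairs of synthetases in the 4 libraries, ordered by the difference of their log2 fold changes. Nars to Nars2 is at the top, with 26.8 and 28.5 in scrambled siRNA libraries and 46.3 and 35.9 in lnc-31 siRNA libraries.

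Other genes of tRNA charging and use were compared with the synthetases. None of 6 tested complex scaffolds and editing factors was called (median log2 fold change -0.12). They include Aimp1, Aimp2 and Eef1e1, the scaffold proteins of the multi-tRNA synthetase complex, at -0.07, -0.17 and -0.12. Nor was any of 4 genes that charge mitochondrial tRNA indirectly or formylate it (Qrsl1, Gatb, Gatc and Mtfmt, median -0.10), of 9 mitochondrial translation factors (median -0.09) or of 5 cytosolic elongation factors (median -0.08). The unadjusted p was under 0.05 for 2, 2, 3 and 0 genes of these 4 lists, against 30.9% of all tested genes. The closest to the threshold was Prorsd1, a prolyl-tRNA editing factor, at -0.18 (limma adjusted p = 0.057), and the mitochondrial elongation factor Tufm was at -0.16 (0.064). Of 21 tRNA maturation and export genes 2 rose and 1 fell (median 0.02), a share of 14.3% that is near the 12.4% of all tested genes. Xpot, the exportin that carries tRNA out of the nucleus, rose from 30.9 and 31.1 to 37.0 and 36.4 FPKM (log2 fold change 0.24, adjusted p = 0.024). Pop1 and Rpp30, both components of RNase P, which trims the 5′ end of tRNA, went in opposite directions (0.27 and -0.29, adjusted p = 0.034 and 0.016). Of 21 genes of RNA polymerase III and its factors, which transcribe tRNA genes, 1 rose (Crcp, 0.34, adjusted p = 0.028), and the median was 0.0025.

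The called synthetases, at log2 fold changes of 0.20 to 0.26, lay below the medians of other ATF4-related lists, a difference that was not tested. Of 21 tested regulators and stress targets of ATF4, 14 rose and none fell (66.7%, median log2 fold change 0.64). Of 20 tested genes of amino acid synthesis and transport, 12 rose and none fell (60.0%, median 0.31). With 1 library left out, 12 to 15 of the first list rose and 7 to 9 of the second, while 0 synthetases did. Atf4 mRNA itself was at 348.7 and 366.9 against 468.2 and 471.1 FPKM (0.39, limma adjusted p = 0.010). Asns, which makes asparagine, the amino acid that Nars uses, went from 58.4 and 59.8 to 81.8 and 78.7 FPKM (0.44, adjusted p = 0.0073). Psph, which makes serine, the amino acid of Sars, went from 22.3 and 27.3 to 36.7 and 39.4 (0.60, adjusted p = 0.020). The other 2 genes of that serine pathway, Phgdh and Psat1, had log2 fold changes of 0.08 and 0.01 and were not called (adjusted p = 0.28 and 0.89). The cystine transporter gene Slc7a11 had a log2 fold change of 0.73. None of the 4 kinase genes that start the stress response (Eif2ak1, Eif2ak2, Eif2ak3 and Eif2ak4) passed the test, with values from -0.19 to 0.06. These lists, like the synthetase list, were assembled with earlier results of these data known.

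**Figure D4:**
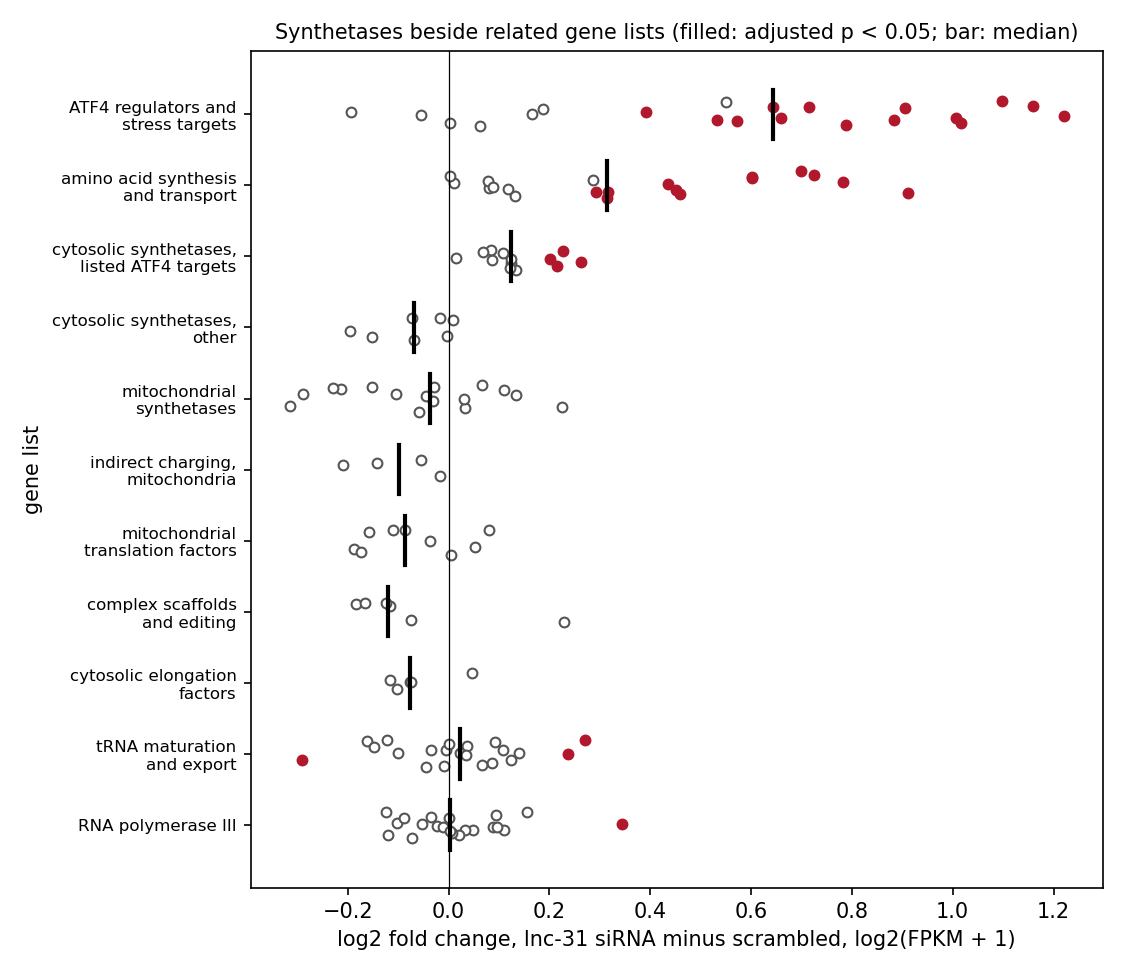
Log2 fold changes of the synthetases and of related gene lists on the log2(FPKM + 1) scale, 1 point per tested gene, filled where called, with a bar at each list's median. The listed cytosolic synthetases (median 0.12) lie between the amino acid genes (0.31) and the other cytosolic synthetases (-0.07).

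Markers of muscle differentiation moved with the siRNA label as well. All 10 tested members of a list of 12 rose, where 5.64% of all tested genes were called higher and 6.78% lower. Their summed level was 257 and 293 FPKM with scrambled siRNA and 478 and 494 with lnc-31 siRNA. Of 5 tested fibroblast markers 3 rose (Dcn, Col1a1 and Pdgfrb), with sums of 1182 and 1248 against 1286 and 1264 FPKM. Col1a2, the most abundant of them, was lower in both lnc-31 siRNA libraries (log2 fold change -0.11, limma adjusted p = 0.27). Neither it nor Pdgfra was called, and Lum and Thy1 of the same list had no row. Adipocyte and blood markers were represented by 1 gene each, at sums of 2.87 to 3.03 and 1.14 to 1.65 FPKM. The epithelial list had Krt14 alone, at 21.2 and 21.7 against 18.7 and 19.5 FPKM, and the neural list Tubb3 and Map2, with sums of 28.6 and 27.7 against 25.2 and 24.3, and none of these was called. Of 6 tested myoblast markers 3 rose (Myod1, Des and Cdh15) and Vcam1 fell, with sums of 398 and 402 against 449 and 460 FPKM. Itga7 (log2 fold change 0.13) and Myf5 (-0.10) were not called (limma adjusted p = 0.14 and 0.16). The part of differentiation or of other cells in the synthetase values was not tested.

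The pull-down touched the set at 1 place. The lnc-31 probe library had 596 peaks, of which 1 lay in a synthetase gene, a 400-base peak within the Wars2 gene body (mm10, chr3:99154201-99154600). The value in its last column, read as the authors' p-value from its range, was 3.84e-05. The lacZ probe library had 476 peaks and none in the 36 genes. Among tested genes with a RefSeq span, 2.01% held a peak of the lnc-31 probes and 1.93% one of the lacZ probes, so 1 of 36 genes is near the background. The reference gives gene spans without exons, and whether the peak is exonic is not known. Wars2 mRNA was at 3.11 and 3.65 FPKM in scrambled libraries and 3.51 and 3.64 with lnc-31 siRNA, with overlapping groups.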

How the data were processed

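The authors deposited FPKM values for the siRNA libraries, made from a stranded mRNA kit on mm10 with, in no stated order or version, Cuffdiff, TopHat2, Bowtie2, BWA, Trimmomatic and CASAVA, per the labels and the submitters' processing notes. For the pull-down the authors deposited peak lists whose last column was read as a p-value from its range. No source used here names the peak caller. FPKM hides read depth, so no counting error is given, and rows over 10000 FPKM took 61.9% to 76.0% of each library's sum.

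Rows whose mean reached 1 FPKM were compared as log2(FPKM + 1) with limma 3.58.1 (R 4.3.3), trended prior variance, two-sided, with Benjamini-Hochberg adjustment at 0.05. The fit was tested on simulated data. Alternatives were other pseudocounts, filters, scalings and priors, a replicate block and each library left out. RefSeq matched 35 members by symbol and Mars by its newer symbol Mars1. Peaks were assigned to genes by an overlap of 1 base or more. All members were named, and from the other lists up to 4 genes of smallest p. Atf4, the Eif2ak genes, Asns, Psph, Phgdh, Psat1, Aimp1, the cell markers and the matches outside called genes were chosen after their values were seen. Members and lists were chosen with earlier results of these data known. Columns with no matching label numbered 0. Python 3.11.15 and pandas 2.3.3 were used. The input library was not analysed here, and 1 item is not reported here.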

Additional observations from a re-analysis of the deposited data

How the results depend on the processing

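The count of called genes in the whole table was 1429, and 260 to 491 when 1 library was left out. A lone library of a group is then assumed to vary like the other group. The 4 rises among cytosolic synthetases fell to 0 with a constant prior variance and to 0 with each library left out. Leaving a library out also lowers the number of libraries, which a constant prior variance does not. The cause of these losses was not tested. Cars also missed the threshold with no filter (limma adjusted p = 0.052). Falls numbered 1 with a pseudocount of 0.1, 1 with a minimum mean of 5 FPKM (Farsb each time) and 2 with the replicate number as a block (Farsb, adjusted p = 0.035, and Kars, 0.042). Deviations of same-numbered libraries correlated at -0.094, so the numbers are not shown to pair the libraries, and the block changed no other call among the synthetases. Mitochondrial counts were 0 under every alternative run, and the pull-down counts of 1 and 0 peaks did not move.

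With 1 library left out, the median log2 fold change ran from 0.064 to 0.10 for cytosolic and from -0.10 to -0.0038 for mitochondrial members. For listed ATF4 targets it ran from 0.10 to 0.13, and was 0.14 under quantile normalization, with 12 or 13 of 13 above 0. For the other cytosolic members it ran from -0.10 to -0.0050, with 0 to 3 of 7 above 0, and 2 with either median of ratios scaling or quantile normalization. These splits by list were added after seeing the data. Dars turned to 0.024 and 0.0042 under those 2 scalings. With 1 library left out, 11 uncalled genes changed sign: Wars2 (-0.024 to 0.15), Vars2 (-0.085 to 0.15), Tars (-0.018 to 0.048), Farsa (-0.050 to 0.069), Dars (-0.043 to 0.035), Rars (-0.048 to 0.013), Yars2 (-0.14 to 0.078), Aars2 (-0.068 to 0.0077), Fars2 (-0.094 to 0.0053), Rars2 (-0.13 to 0.014) and Qars (-0.15 to 0.012). Without library depth, no value can be said to be limited by counting.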
